A study of Mus musculus with 5 samples.

Results

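Collagens are the main structural proteins of the extracellular matrix, and the collagen genes described here are those whose mouse symbol, looked up from the gene ID, has the form Col, a number, the letter a and a number. Of the 78334 genes in the count table, 44 met this rule. By the assembly their chains form they fall into 11 fibrillar, 8 basement membrane, 6 microfibrillar, 9 FACIT (fibril-associated with interrupted triple helices) and 4 transmembrane collagens, with 6 others. RNA labelled as visceral adipose tissue of male C57BL/6 mice was counted in 5 libraries: control 1, diabetes 1 and 2, and curcumin 1 and 2. Both diabetic groups had received streptozotocin (STZ), which destroys insulin-producing beta cells, by intraperitoneal injection at 70 mg/kg and 2 days of age, and a high-fat diet with 60% of its calories from fat, begun at 3 weeks of age and kept for 8 weeks. The curcumin group then received curcumin, a polyphenol of turmeric, by daily gavage at 50 mg/kg for 28 days from 11 weeks of age, whereas the untreated diabetic group and the control received vehicle. The control mice ate standard chow, and the labels name no STZ for them. Nothing in the labels states that each library is a different mouse, so p-values measure the spread among these libraries, which may be technical, and the control is 1 library without a spread.

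Every collagen chain carries runs of glycine-X-Y triplets, through which chains wind around each other into a helix that is secreted and built into a supramolecular assembly. Fibrillar collagens pack into the cables that bear tension, type IV collagens form the sheet beneath epithelia and around each adipocyte, type VI collagen forms beaded microfilaments around cells, and FACIT collagens coat fibril surfaces. In adipose tissue, types IV and VI surround the fat cells, and an excess of fibrillar and type VI collagen is a hallmark of fibrotic fat. The triplet runs differ by class in the reference proteins: the longest uninterrupted run spanned 337 to 344 triplets in 9 of the 11 fibrillar chains, and 216 and 217 in Col24a1 and Col27a1. It was 39 to 66 triplets in the type IV chains, which break into 23 to 27 blocks, and 87 in both Col6a1 and Col6a2 against 37 to 45 in the other type VI chains. In FACIT chains it was 32 to 113 triplets, and in the transmembrane chains 40 to 55.

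The 250 bases before the start of transcription are shown for 6 collagens that follow different patterns across the libraries, so that genes that were high together can be read side by side. Col5a3, Col15a1 and Col6a5 were highest in diabetes 2, Col4a6 and Col23a1 were highest in curcumin 1, and Col7a1 was lowest in diabetes 2. The sequences are RefSeq's, on GRCm38.p6, written 5′ to 3′ on the gene's strand, whereas the counts were made on GRCm39; capitals mark every match, on either strand, to TATAAA (the TATA box), to the CCAAT box or to the GC box with the letters GGGCGG.
Col5a3, chr9:20815068-20815317, minus strand: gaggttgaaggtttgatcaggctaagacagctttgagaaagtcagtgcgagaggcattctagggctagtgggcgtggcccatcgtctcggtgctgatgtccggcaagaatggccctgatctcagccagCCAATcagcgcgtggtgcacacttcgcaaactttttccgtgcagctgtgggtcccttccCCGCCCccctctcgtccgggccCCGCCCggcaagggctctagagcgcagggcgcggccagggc
Col15a1, chr4:47207762-47208011, plus strand: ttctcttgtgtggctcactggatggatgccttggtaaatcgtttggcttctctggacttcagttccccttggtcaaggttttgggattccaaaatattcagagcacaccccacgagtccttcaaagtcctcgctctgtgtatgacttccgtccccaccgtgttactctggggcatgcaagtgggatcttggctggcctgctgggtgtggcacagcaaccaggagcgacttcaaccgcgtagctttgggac
Col6a5, chr9:105960644-105960893, minus strand: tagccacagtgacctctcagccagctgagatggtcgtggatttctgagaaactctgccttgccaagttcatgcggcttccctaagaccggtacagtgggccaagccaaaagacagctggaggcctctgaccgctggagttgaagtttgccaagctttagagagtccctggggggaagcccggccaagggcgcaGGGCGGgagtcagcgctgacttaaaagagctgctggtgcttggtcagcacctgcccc
Col4a6, chrX:141474077-141474326, minus strand: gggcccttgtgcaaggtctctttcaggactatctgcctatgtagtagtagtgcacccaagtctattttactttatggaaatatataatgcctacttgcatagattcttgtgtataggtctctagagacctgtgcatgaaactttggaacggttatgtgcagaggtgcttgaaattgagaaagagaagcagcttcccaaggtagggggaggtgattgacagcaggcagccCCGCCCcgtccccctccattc
Col23a1, chr11:51289670-51289919, plus strand: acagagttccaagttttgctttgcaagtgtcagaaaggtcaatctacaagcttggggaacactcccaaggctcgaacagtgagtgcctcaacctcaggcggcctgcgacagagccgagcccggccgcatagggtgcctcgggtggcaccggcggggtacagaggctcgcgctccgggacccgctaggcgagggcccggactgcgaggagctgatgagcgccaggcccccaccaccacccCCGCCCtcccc
Col7a1, chr9:108953336-108953585, plus strand: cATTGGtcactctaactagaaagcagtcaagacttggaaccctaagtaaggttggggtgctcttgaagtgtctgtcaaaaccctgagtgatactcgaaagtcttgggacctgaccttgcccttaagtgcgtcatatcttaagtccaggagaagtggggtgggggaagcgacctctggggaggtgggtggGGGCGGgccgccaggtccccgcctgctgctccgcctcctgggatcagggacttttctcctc
None of these 6 windows overlapped an annotated exon of the GENCODE annotation of GRCm38, none held TATAAA, and the Col15a1 window held no match to any of the 3 motifs. The RefSeq promoter table had an entry for 35 of the 44 collagens, with 38 start sites among them. GGGCGG was found in 22 of the 38 windows (57.9%) against 32.7% of all 32851 windows of the same length, CCAAT in 13 (34.2%) against 33.8%, and TATAAA in 5 (13.2%) against 12.4%. In 1487 of all windows, matches shared bases with each other. These matches describe letters and say nothing of which factor binds.

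Total counts ran from 25378046 to 42422890 per library, and levels are given as counts scaled to the library total (CPM). Where no read was counted, the true level may reach 3 counts, which is 0.0707 to 0.118 CPM depending on the library. Without molecular identifiers, intervals and such limits cover counting error alone. Low counts were spread unevenly over the libraries. Curcumin 1 had 46369 genes with a count, 19751 of them at 1 to 5 counts, and no collagen at 0. The other libraries had 24874 to 35983 genes with a count, 1292 to 10411 at 1 to 5 counts, and 1 to 5 collagens at 0. The libraries of a group did not hold the same tissue markers. The 12 adipocyte markers took 4.68% of counts in diabetes 2 and 0.506% in curcumin 1, but 0.0596% in control 1, 0.0132% in diabetes 1 (2 markers at 0) and 0.0176% in curcumin 2. Adipoq, the adipocyte hormone adiponectin, stood at 1610.3 CPM in diabetes 2, 179.5 in curcumin 1, 15.1 in control 1, 1.34 in diabetes 1 and 1.41 in curcumin 2. The 14 markers of the epididymal epithelium, the duct lying along gonadal fat, ran the other way. They took 5.14% in control 1, 4.67% in diabetes 1, 6.43% in curcumin 2 and 0.600% in curcumin 1. Diabetes 2 had 8 counts in all, with 11 markers at 0. In curcumin 1, Crisp1 alone held 165926 of the 166876 counts, at 5965 CPM, its highest level of the 5 libraries. The median marker was at 1.98 CPM there, against 2723 in control 1, 2767 in diabetes 1 and 2876 in curcumin 2. The 10 smooth muscle and pericyte markers took 4.83% in curcumin 1 and 0.0593% to 0.284% elsewhere. Rgs5 and Notch3 of this list did not follow the sum. Rgs5 was highest in diabetes 2 at 107 CPM, against 55.4 in curcumin 1. Notch3 was highest in diabetes 1 at 46.4 CPM, against 34.2 in curcumin 1. The 8 skeletal muscle markers took 0.137% in curcumin 1 and at most 0.0114% elsewhere. Acta1 and Ckm held most of these counts in curcumin 1, at 1069 and 294 CPM, and Tnnt3 was also highest there at 5.39. The myosin genes Myh1, Myh2 and Myh4 were highest in curcumin 2, at 4.95, 5.35 and 5.30 CPM, as were Tnni2 and Actn3. The 12 fibroblast and adipose stromal markers summed to between 0.0373% and 0.125%, highest in diabetes 2, but did not move together. Dpt ran from 2.44 CPM in diabetes 1 to 360 in diabetes 2, and Pcolce2 from 0.731 in curcumin 2 to 133 in diabetes 2. Pdgfra was highest in control 1 at 160 CPM, against 79.1 in diabetes 2 and 32.6 in curcumin 1. Dpp4 was highest in diabetes 1 at 92.4 and lowest in diabetes 2 at 20.1. Cd248 and Thy1 were highest in curcumin 1. Macrophage markers took 0.241% in diabetes 2 and 0.0132% to 0.0431% elsewhere. Endothelial markers took 0.00748% to 0.0382%, and mesothelial markers 0.00176% in diabetes 2 and 0.0213% to 0.0468% elsewhere. Krt19 led the mesothelial sum in every library but diabetes 2, where it was at 0.985 CPM. Msln, Upk3b, Lrrn4 and Wt1 were instead highest in diabetes 2, at 2.72, 3.63, 1.26 and 4.69 CPM. Upk1b was highest in diabetes 1 at 103 CPM, and Gpm6a in curcumin 1 at 27.1. Schwann cell markers took 0.00293% to 0.0112%, and cartilage and bone markers 0.000154% to 0.0107%, of which the bone genes Bglap and Ibsp stayed at or below 1.11 CPM. Sox9 led the cartilage and bone sum in every library, with 4412 of its 4522 counts in curcumin 2. It ran from 1.38 CPM in diabetes 2 to 104 in curcumin 2. In such bulk RNA, fewer cells of a type and less RNA per cell cannot be told apart, and the part of any of these markers in the collagen values was not tested.

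The highest and the lowest collagen share of the 5 libraries were both in the untreated diabetic group. All 44 genes together took 0.921% of counts in diabetes 2 (95% Wilson interval 0.917% to 0.925%) and 0.0621% in diabetes 1 (0.0612% to 0.0631%). The curcumin libraries stood at 0.421% (0.419% to 0.423%) for curcumin 1 and 0.210% (0.208% to 0.211%) for curcumin 2, and control 1 at 0.149% (0.147% to 0.150%). The remaining 3 libraries lay between the diabetic ones. The order of the libraries for total collagen was also the order for the summed fibrillar and the microfibrillar genes with an exception in each: curcumin 2 exceeded curcumin 1 for the fibrillar genes, and control 1 exceeded curcumin 2 for the microfibrillar ones. Of the 41 members that passed the low-count filter described with the comparisons, diabetes 2 was the highest library for 19 (46.3%) beside 22.0% of all genes that passed it, and the lowest for 14 beside 30.2% of all genes. Diabetes 1 was the highest for 1 (2.44%) beside 22.9% of all genes, and the lowest for 19 beside 26.6% of all genes. Across the 24 members with a mean of at least 10 CPM, the highest library was diabetes 2 for 16, curcumin 1 for 4, control 1 for 2 and curcumin 2 for 2. The share over all genes with such a mean was not computed.

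**Figure D1:**
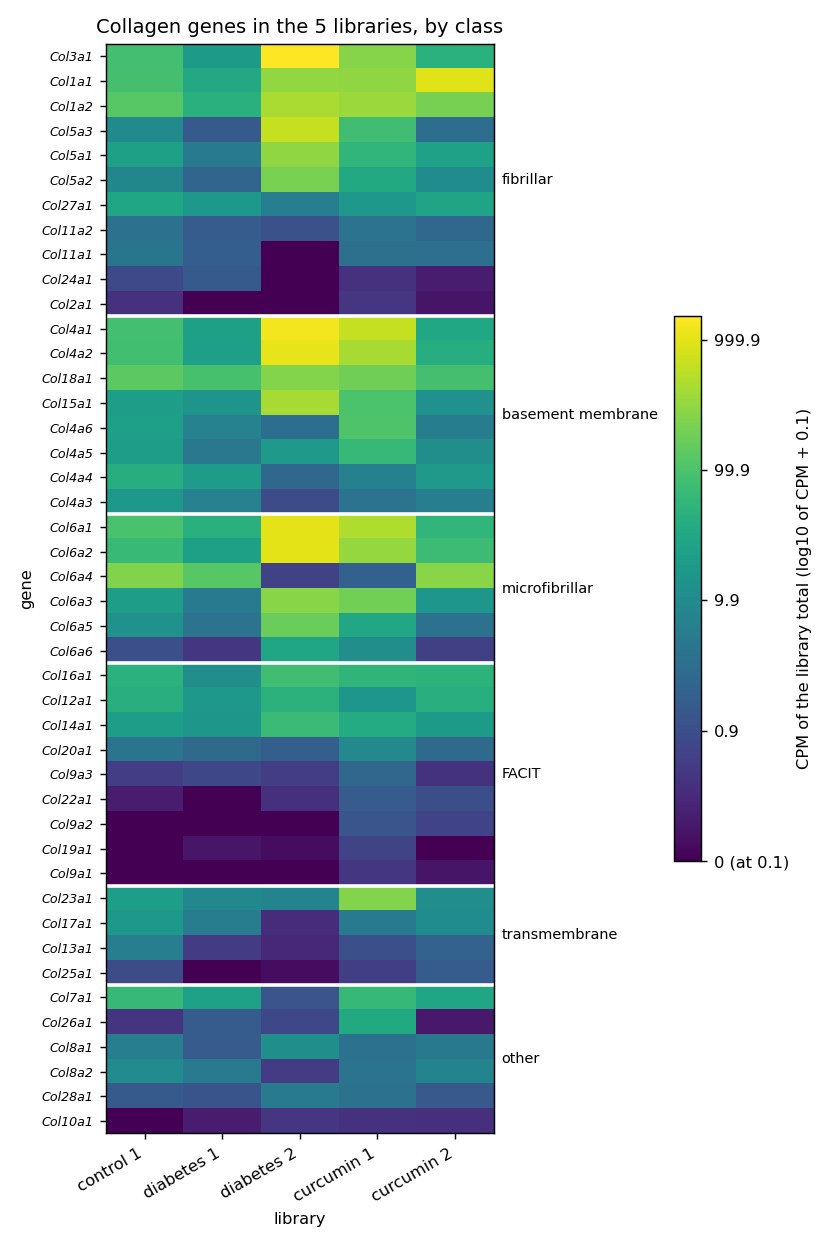
Level of each collagen gene in each of the 5 libraries, grouped by class; colour gives CPM of the library total plus 0.1 on a log10 scale. Col3a1, the type V genes, Col4a1, Col4a2, Col6a1, Col6a2 and Col6a3 are brightest in diabetes 2 and Col1a1 in curcumin 2; in diabetes 2, Col6a4, Col7a1 and Col17a1 are at or below 1.14 CPM.

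Class by class, the libraries had different collagen make-ups. Fibrillar genes summed to 377 CPM in control 1, 129 and 3440.0 in diabetes 1 and 2, and 1123 and 1275 in curcumin 1 and 2. Basement membrane genes summed to 423, 193, 3054, 1547 and 214 CPM in the same order, and microfibrillar genes to 444, 202, 2488, 1048 and 422. These 3 classes were all highest in diabetes 2 and lowest in diabetes 1. FACIT genes moved over a narrower range, at 115, 48.2, 201, 122 and 118 CPM. Transmembrane genes were at 45.1, 15.1, 8.08, 261 and 25.7 CPM, and the other collagens at 80.8, 33.8, 19.6, 109 and 42.9. These last classes were highest in curcumin 1 and lowest in diabetes 2, but each of these orders rested in part on 1 gene. Without Col23a1, the transmembrane class was highest in control 1 at 23.5 CPM, with curcumin 1 at 6.62. Without Col7a1, the other collagens were lowest in diabetes 1 at 9.67 CPM, with diabetes 2 at 18.5. As a percent of each library's collagen counts, fibrillar genes were 25.4% in control 1, 20.7% and 37.3% in diabetes 1 and 2, and 26.7% and 60.8% in curcumin 1 and 2, and basement membrane genes 28.5%, 31.1%, 33.2%, 36.7% and 10.2%. Curcumin 2 thus had the largest fibrillar and the smallest basement membrane percentage of the 5.

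**Figure D2:**
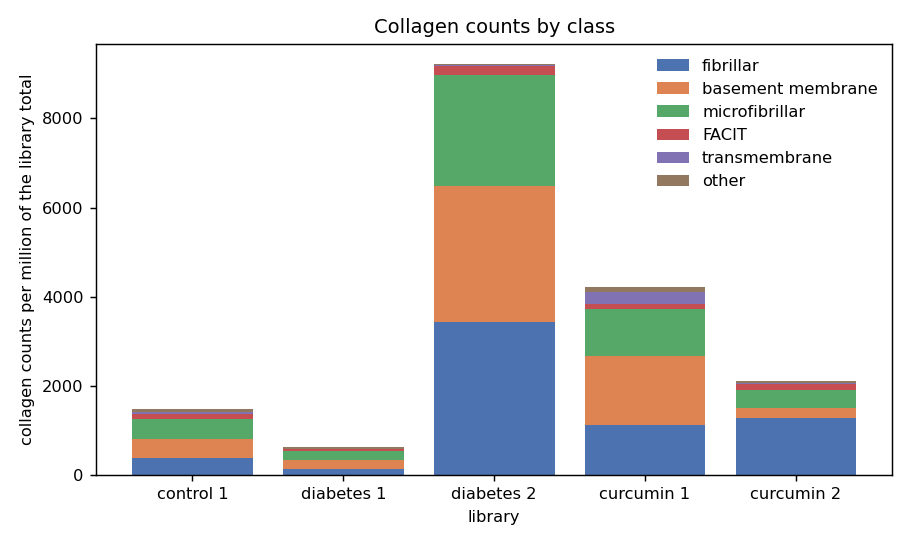
Stacked bars of the summed CPM of each collagen class (vertical axis, from 0) in each of the 5 libraries (horizontal axis). Diabetes 2 has the tallest bar and diabetes 1 the shortest, and the basement membrane segment is thin in curcumin 2 at 214 CPM.

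Type I collagen, the main protein of tendon, bone and fibrotic scars, is built from the chains of Col1a1 (ENSMUSG00000001506) and Col1a2 (ENSMUSG00000029661). Col1a1 was at 87.5 CPM in control 1, 33.6 and 312 in diabetes 1 and 2, and 311 and 947 in curcumin 1 and 2, which gives 173 ± 197 CPM (SD, n = 2) in untreated diabetes and 629 ± 449.9 (SD, n = 2) with curcumin. Col1a2 was at 124, 45.5, 445, 351 and 209.9 CPM. The diabetic and curcumin libraries overlapped for both genes. Curcumin 2 was the highest library for Col1a1 and diabetes 2 for Col1a2. Per kilobase of transcript, the ratio of Col1a1 to Col1a2 was 0.638 in control 1 (95% exact interval 0.605 to 0.673), 0.666 in diabetes 1 (0.609 to 0.728), 0.631 in diabetes 2 (0.613 to 0.650), 0.799 in curcumin 1 (0.776 to 0.822) and 4.07 in curcumin 2 (3.98 to 4.16). The intervals of control 1, diabetes 1 and diabetes 2 overlapped one another. Col1a1 alone made up 45.2% of the collagen counts of curcumin 2, while the bone genes Ibsp and Bglap were at 0 and 0.660 CPM there.

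Type III and type V chains followed another pattern. Col3a1 (ENSMUSG00000026043), whose product mixes with type I in distensible tissues, was at 86.2 CPM in control 1, 18.8 and 1512 in diabetes 1 and 2, and 265 and 46.4 in curcumin 1 and 2. It took 16.4% of the collagen counts of diabetes 2 and had the highest CPM per kilobase of all collagens there, at 272. Relative to Col1a2 and per kilobase, Col3a1 stood at 0.670 in control 1, 0.396 and 3.26 in diabetes 1 and 2, and 0.726 and 0.213 in curcumin 1 and 2. Type V collagen sits in the core of type I fibrils and limits their width. Its genes Col5a1 (ENSMUSG00000026837), Col5a2 (ENSMUSG00000026042) and Col5a3 (ENSMUSG00000004098) all peaked in diabetes 2. Col5a1 was at 23.4 CPM in control 1, 5.38 and 302 in diabetes 1 and 2, and 57.3 and 24.4 in curcumin 1 and 2, and Col5a2 at 8.07, 2.20, 222, 34.7 and 10.7. Col5a3, at 9.55, 1.41, 641, 79.0 and 3.11 CPM, had the widest span of the type V genes. Per kilobase, Col5a3 exceeded Col5a1 in diabetes 2 (ratio 2.92) and curcumin 1 (1.89), the 2 libraries with the most adipocyte marker counts, and lay below it in control 1 (0.561), diabetes 1 (0.361) and curcumin 2 (0.175). Whether adipocyte content has a part in this order was not tested.

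The remaining fibrillar genes were low. Col27a1 (ENSMUSG00000045672) encodes a chain of cartilage and developing tissues. It was at 29.7 CPM in control 1, 17.0 and 5.99 in diabetes 1 and 2, and 17.0 and 27.2 in curcumin 1 and 2. The type XI genes, partners of type II collagen in cartilage, were low everywhere: Col11a1 was at 4.07, 1.65, 0, 3.45 and 3.23 CPM and Col11a2 at 3.55, 1.57, 0.985, 3.85 and 2.52. Diabetes 2 was lowest for Col27a1 and for both type XI genes. Col24a1 peaked at 1.45 CPM in diabetes 1 and was at 0 in diabetes 2, and Col2a1, the cartilage collagen, was at or below 0.360 CPM in all 5 libraries.

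**Figure D3:**
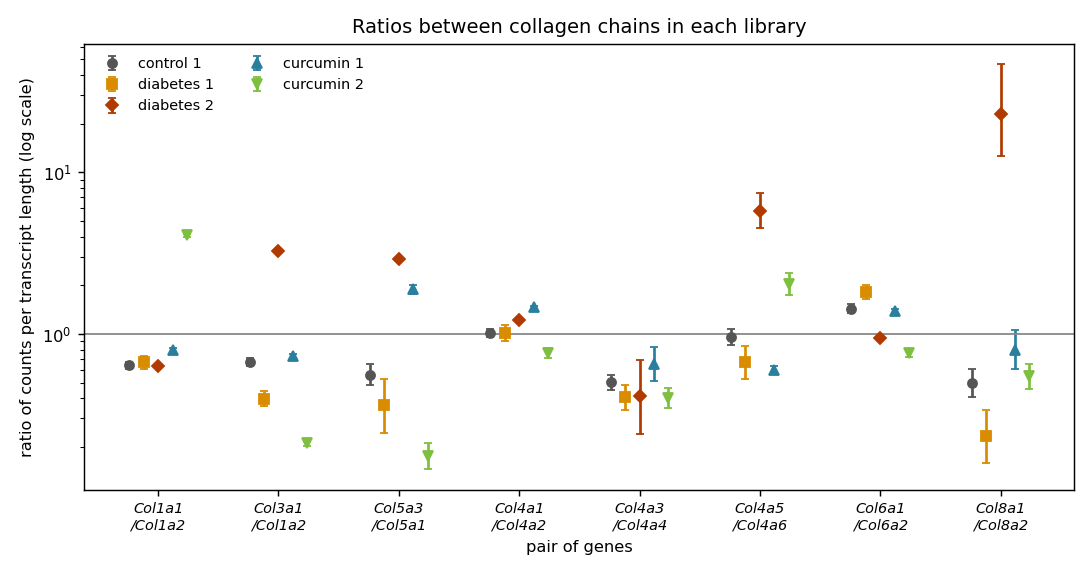
Ratios of 8 pairs of collagen genes in each library, as counts per transcript length on a log axis, with 95% exact intervals from counting error. Col1a1 over Col1a2 is near 0.6 to 0.8 in 4 libraries and 4.07 in curcumin 2, while Col3a1 over Col1a2 peaks at 3.26 in diabetes 2.

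Type IV collagen has 6 genes in 3 head-to-head pairs, Col4a1 with Col4a2 on chromosome 8, Col4a3 with Col4a4 on chromosome 1 and Col4a5 with Col4a6 on chromosome X. The first pair encodes the network of nearly all basement membranes, the second joins Col4a5 in specialised membranes such as the kidney glomerulus, and Col4a5 with Col4a6 forms a network found beneath some epithelia and around smooth muscle. Col4a1 (ENSMUSG00000031502) was at 84.4 CPM in control 1, 23.7 and 1299.8 in diabetes 1 and 2, and 649.9 and 30.9 in curcumin 1 and 2, and Col4a2 (ENSMUSG00000031503) at 80.8, 22.9, 1045, 433 and 39.7. Both genes of this pair were high in diabetes 2 and curcumin 1 and low in the other 3 libraries. Their ratio per kilobase stayed within 0.759 in curcumin 2 and 1.47 in curcumin 1, but their exons overlap in the reference annotation, so reads could be shared between them.

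The second pair was arranged differently. Col4a3 (ENSMUSG00000079465) was at 16.8 CPM in control 1, 7.03 and 0.827 in diabetes 1 and 2, and 3.74 and 6.06 in curcumin 1 and 2, and Col4a4 (ENSMUSG00000067158) at 39.6, 20.5, 2.36, 6.76 and 17.9. Diabetes 2 was lowest and control 1 highest for both, and their ratio per kilobase was 0.401 to 0.654. The third pair peaked in curcumin 1, the library with the most smooth muscle marker counts: Col4a6 (ENSMUSG00000031273) was at 22.7, 7.07, 3.11, 107 and 5.78 CPM, and Col4a5 (ENSMUSG00000031274) at 21.4, 4.64, 17.7, 62.6 and 11.6. The part of smooth muscle content in this was not tested. These X-linked partners did not keep one proportion: Col4a5 over Col4a6 per kilobase was 0.957 in control 1 (95% exact interval 0.853 to 1.07), 0.667 in diabetes 1 (0.524 to 0.846), 5.77 in diabetes 2 (4.53 to 7.42), 0.596 in curcumin 1 (0.561 to 0.632) and 2.04 in curcumin 2 (1.75 to 2.39). Set against the first pair, Col4a1 over Col4a5 per kilobase was 3.90, 5.06, 72.7, 10.3 and 2.64 in the same library order.

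Multiplexins, the collagens of Col15a1 (ENSMUSG00000028339) and Col18a1 (ENSMUSG00000001435), tie basement membranes to the matrix around them, and the end of the Col18a1 product is cut off as endostatin, an inhibitor of vessel growth. Col15a1 was at 22.2 CPM in control 1, 14.3 and 429.6 in diabetes 1 and 2, and 100.1 and 13.1 in curcumin 1 and 2. Col18a1 varied least of the abundant basement membrane genes, at 135, 93.1, 256, 185 and 88.8 CPM. Diabetes 2 was the highest library for both multiplexin genes.

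**Figure D4:**
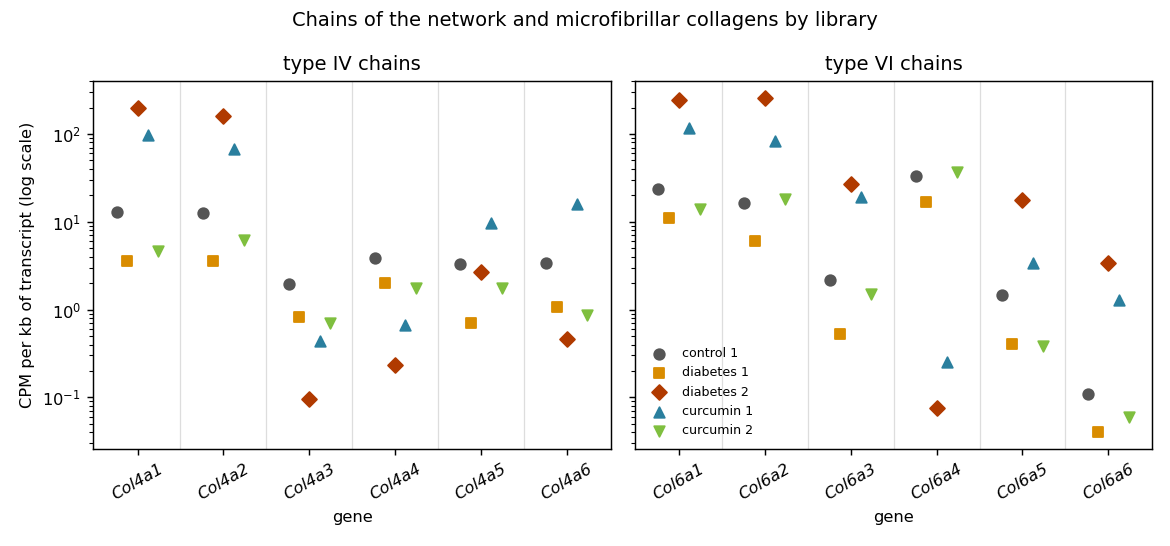
CPM per kilobase of transcript (log axis) of the 6 type IV and 6 type VI chain genes, 1 point per library. Col4a1, Col4a2, Col6a1, Col6a2 and Col6a3 are highest in diabetes 2 and next in curcumin 1, the libraries in which Col6a4 is lowest.

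Microfibrils of type VI collagen are assembled from the chains of Col6a1 and Col6a2, neighbours on chromosome 10, with the chain of Col6a3 or of one of its relatives Col6a4, Col6a5 and Col6a6, which lie together on chromosome 9. A fragment cut from the Col6a3 product, endotrophin, is released by adipocytes. Col6a1 (ENSMUSG00000001119) was at 96.9 CPM in control 1, 45.4 and 999.8 in diabetes 1 and 2, and 478 and 57.1 in curcumin 1 and 2. Col6a2 (ENSMUSG00000020241) was at 65.0, 24.0, 1020.1, 331 and 72.5 CPM, and Col6a3 (ENSMUSG00000048126) at 22.0, 5.30, 272, 195 and 15.4. All 3 were highest in diabetes 2 and next in curcumin 1, with the other libraries well below. Per kilobase, Col6a3 stood at 0.0474 to 0.165 of Col6a1.

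Col6a4 (ENSMUSG00000032572) was lowest in the libraries in which those 3 were highest. It was at 246 CPM in control 1, 124 and 0.552 in diabetes 1 and 2, and 1.87 and 273 in curcumin 1 and 2. Its high libraries were the 3 with the most epididymal epithelium marker counts, in which it made up 13.0% to 19.9% of collagen counts, and the part of that tissue in its level was not tested. In control 1 and diabetes 1 it was the highest collagen gene per kilobase, at 33.3 and 16.8 CPM per kilobase. Relative to Col6a3 per kilobase, Col6a4 was at 15.3, 31.9, 0.00279, 0.0132 and 24.3 in the 5 libraries in order. Exons of Col6a4 overlap those of 2 other annotated genes, Gm36993 and Gm47575, which leaves its counts open to shared reads. Its chromosome 9 neighbours sided with Col6a3 instead: Col6a5 (ENSMUSG00000091345) was at 13.6, 3.77, 166, 31.6 and 3.58 CPM, and Col6a6 at 0.962, 0.354, 30.1, 11.4 and 0.519.

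FACIT collagens decorate fibrils without forming fibrils of their own. Col16a1 (ENSMUSG00000040690), found at the edge of fibrils and basement zones, was at 46.1 CPM in control 1, 11.5 and 78.1 in diabetes 1 and 2, and 54.2 and 50.1 in curcumin 1 and 2. Col12a1 (ENSMUSG00000032332), one of the longest collagen chains at 3065 residues, was at 43.4, 16.9, 48.9, 15.3 and 44.0 CPM, and its relative Col14a1 (ENSMUSG00000022371), a regulator of fibril growth, at 21.2, 16.3, 71.8, 37.1 and 19.1. Diabetes 2 was highest for all 3, with 1.94 times the next library for Col14a1, 1.44 for Col16a1 and 1.11 for Col12a1, and diabetic and curcumin libraries overlapped for each. The other 6 FACIT genes stayed at or below 9.24 CPM. Col20a1 peaked at 9.24 CPM, Col9a3 at 2.30, Col22a1 at 1.47, Col9a2 at 1.19, Col19a1 at 0.611 and Col9a1 at 0.360, all in curcumin 1. That library also had the most genes at 1 to 5 counts, 19751, and the part of this in these peaks was not tested. Type IX collagen, whose 3 genes are Col9a1, Col9a2 and Col9a3, is a cartilage protein.

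Transmembrane collagens span the cell membrane and shed their outer part. Col23a1 (ENSMUSG00000063564) was at 21.6 CPM in control 1, 8.80 and 7.61 in diabetes 1 and 2, and 254 and 11.4 in curcumin 1 and 2. Curcumin 1 thus exceeded the next library 11.8-fold, and the gene made up 6.04% of its collagen counts. Myh11, a myosin of smooth muscle, was at 13342 CPM in that library and 37.4 to 318 in the others; its part in the Col23a1 level was not tested. Col17a1, of the hemidesmosomes that fix epithelia to their membrane, was at 16.5, 5.89, 0.236, 5.18 and 10.8 CPM in library order. Col13a1, known from the neuromuscular junction, was highest in control 1 at 6.14 CPM and at 0.197 to 1.96 elsewhere, and Col25a1 reached 1.56 CPM in curcumin 2 and was at 0 in diabetes 1.

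Among the other collagens, Col7a1 (ENSMUSG00000025650) builds the anchoring fibrils beneath stratified epithelia. It was at 62.6 CPM in control 1, 24.2 and 1.14 in diabetes 1 and 2, and 63.1 and 28.8 in curcumin 1 and 2, so that diabetes 2 stood far below the other 4. Col26a1 was at 34.9 CPM in curcumin 1, 22.8 times the next library, and at or below 1.53 in the rest. Type VIII collagen forms hexagonal lattices in vessel walls, and its chains come from Col8a1 and Col8a2. Col8a1 was at 6.07, 1.49, 11.8, 3.60 and 4.86 CPM and Col8a2 at 10.4, 5.42, 0.433, 3.81 and 7.52. Their ratio per kilobase was therefore 23.1 in diabetes 2 (95% exact interval 12.7 to 46.7) and 0.234 to 0.800 in the other libraries. Col28a1 stayed within 1.10 to 5.20 CPM, and Col10a1, of growth plate cartilage, at or below 0.355.

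The comparison of curcumin-treated with untreated diabetic libraries asks what the treatment changes. No collagen gene passed it. Of 44 collagens, 41 passed the low-count filter (Col2a1, Col9a1 and Col10a1 did not) and none of the 41 was called at an adjusted p of 0.05 by edgeR's quasi-likelihood test with Benjamini-Hochberg adjustment, nor was any of the 29855 genes tested (0%). By DESeq2, 93 of all genes and again no collagen passed. The smallest adjusted p was 0.852, and at an unadjusted p under 0.05 edgeR gave 3 collagens (Col9a2, Col23a1 and Col25a1) and 700 genes in all. With 2 libraries against 2, an exact two-sided permutation test of a single value cannot go below 0.333. For the collagens the median log2 fold change was 0.23, with 23 above 0 and 18 below, beside a median of 0.05 and 51.7% above 0 over all genes tested. Both curcumin libraries lay above both diabetic ones for 9 of the 41 collagens (22%), against a background of 17.9% of all genes. The 9 were Col7a1, Col9a2, Col11a1, Col11a2, Col13a1, Col22a1, Col23a1, Col25a1 and Col27a1, of which Col7a1, Col23a1 and Col27a1 had a mean of at least 10 CPM. No collagen lay below in both, against 9.72% of all genes. The median within-group SD of the collagens was 1.59 on the scale of log2(CPM + 0.5).

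Log2 fold changes of curcumin against untreated diabetes were wide in both directions, and each is given with its standard error (SE). Among members with a mean of at least 10 CPM, the largest positive ones were 3.92 (SE 1.36) for Col23a1 and 3.40 (SE 1.32) for Col4a6, followed by 1.91 (SE 1.28) for Col7a1, 1.83 (SE 1.25) for Col1a1 and 1.60 (SE 1.04) for Col4a5. Without curcumin 1, the value was 0.57 for Col23a1 and 0.31 for Col4a6. With 1 library left out, the value ran from 0.98 to 5.18 for Col7a1, from 0.64 to 4.38 for Col1a1 and from 0.09 to 3.02 for Col4a5. Below that mean, Col9a2, Col25a1, Col26a1, Col22a1, Col13a1, Col19a1 and Col11a1 had fitted values above that of Col7a1. Negative values in the same set were led by the type V and III genes, at -3.17 (SE 2.52) for Col5a3, -2.48 (SE 1.89) for Col3a1, -2.46 (SE 1.83) for Col5a2, -2.46 (SE 1.79) for Col6a5, -2.15 (SE 1.66) for Col15a1 and -2.06 (SE 1.63) for Col5a1. Without diabetes 2 each of these 6 turned positive, to between 1.99 for Col15a1 and 4.84 for Col5a3. The type IV and VI core genes lay between, at -1.16 (SE 1.96) for Col4a1, -1.37 (SE 1.80) for Col4a2, -1.15 (SE 1.58) for Col6a1, -1.54 (SE 1.65) for Col6a2 and -0.59 (SE 1.80) for Col6a3. Col6a4 was at 1.34 (SE 2.52) and Col27a1 at 1.01 (SE 0.68). The remaining values were 0.08 (SE 1.10) for Col1a2, 0.13 (SE 0.94) for Col16a1, -0.15 (SE 0.85) for Col12a1, 0.23 (SE 1.08) for Col4a4, -0.44 (SE 0.72) for Col18a1 and -0.75 (SE 0.84) for Col14a1, and Col4a3, which is below that mean, was at 0.42 (SE 1.10).

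**Figure D5:**
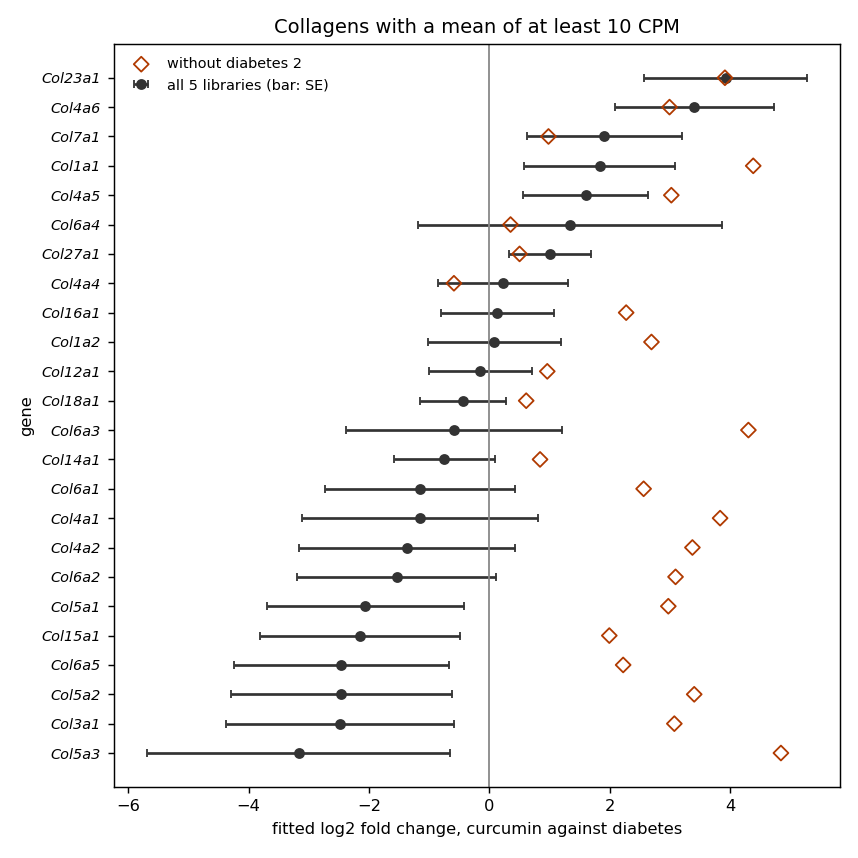
Log2 fold change of curcumin against untreated diabetes for the 24 collagens with a mean of at least 10 CPM, filled points with bars of 1 SE for all 5 libraries and open diamonds without diabetes 2. The negative values of the type III, IV, V and VI genes lie above 0 without diabetes 2.

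Untreated diabetes against the control asks what the STZ and high-fat diet model changes. No collagen and no other gene (0%) passed edgeR's quasi-likelihood test at a Benjamini-Hochberg adjusted p of 0.05, the smallest adjusted p being 1. DESeq2 called 55 genes, no collagen among them. At an unadjusted p under 0.05 edgeR gave 1 collagen, Col13a1, with a log2 fold change of -4.15 (SE 1.25), and 441 genes in all. The collagen median was 0.42, with 24 genes above 0 and 16 below, beside 0.07 for all genes. Both diabetic libraries lay below the control for 15 of the 41 collagens (36.6%), close to the 34.5% of all genes. The 15 were Col4a3, Col4a4, Col4a5, Col4a6, Col6a4, Col7a1, Col8a2, Col11a1, Col11a2, Col13a1, Col17a1, Col20a1, Col23a1, Col25a1 and Col27a1. Both lay above it for Col19a1 and Col26a1 alone (4.88%), against 17.3% of all genes. The abundant chains had positive fold changes with large errors, such as 5.32 (SE 3.82) for Col5a3, 4.04 (SE 2.65) for Col5a2, 3.56 (SE 2.37) for Col15a1, 3.39 (SE 2.64) for Col3a1, 3.25 (SE 2.35) for Col6a2 and 3.21 (SE 2.82) for Col4a1. Further positive values were 2.97 (SE 2.54) for Col4a2, 2.96 (SE 2.25) for Col5a1, 2.90 (SE 2.57) for Col6a3, 2.89 (SE 2.43) for Col6a5, 2.67 (SE 2.20) for Col6a1, 1.27 (SE 1.09) for Col14a1, 1.22 (SE 1.43) for Col1a2, 1.21 (SE 1.57) for Col1a1 and 0.57 (SE 0.91) for Col18a1. Col16a1 was at 0.18 (SE 1.16), or -0.04 when scaled to the library total alone, and Col12a1 at -0.20 (SE 1.03). Without diabetes 2, the value was -2.71 for Col5a3, -2.16 for Col3a1 and -1.79 for Col4a1, and the collagen median was -1.33 in place of 0.42. Genes low in both diabetic libraries had values of -2.25 (SE 1.46) for Col7a1, -2.05 (SE 1.42) for Col4a6, -2.03 (SE 1.29) for Col4a3, -1.94 (SE 2.91) for Col6a4, -1.72 (SE 1.27) for Col4a4, -1.27 (SE 0.79) for Col27a1, -1.26 (SE 1.44) for Col23a1 and -0.73 (SE 1.21) for Col4a5. With 1 library left out, these ran from -8.55 to -0.95 for Col6a4, from -5.53 to -1.33 for Col7a1 and from -2.16 to -0.04 for Col4a5.

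Curcumin-treated diabetes against the control, a comparison that shares the control library with the preceding one and the treated libraries with the first, likewise called no collagen and no other gene (0%) in edgeR's quasi-likelihood test, with a smallest Benjamini-Hochberg adjusted p of 1. DESeq2 called 71 genes and no collagen, and edgeR gave 0 collagens and 113 genes at an unadjusted p under 0.05. The collagen median was 0.89, with 28 genes above 0 and 13 below, beside 0.17 for all genes, a value that was 0.03 when counts were scaled to the library total alone. Both curcumin libraries lay above the control for Col1a1, Col1a2, Col5a1, Col5a2, Col6a2, Col9a2, Col16a1 and Col22a1, 8 of 41 (19.5%) against 24.6% of all genes, and below it for 9 (22%) against 34%. The 9 were Col4a3, Col4a4, Col8a1, Col8a2, Col11a1, Col13a1, Col17a1, Col24a1 and Col27a1. Type I genes stood at 3.04 (SE 1.75) for Col1a1 and 1.30 (SE 1.43) for Col1a2. Col23a1 was at 2.66 (SE 1.71), Col6a3 at 2.31 (SE 2.48), Col5a3 at 2.15 (SE 3.18) and Col4a1 at 2.06 (SE 2.63). Values of 1.36 to 1.71 belonged to Col6a2, Col4a2, Col5a2, Col6a1, Col15a1 and Col4a6, and values of 0.12 to 0.92 to Col3a1, Col5a1, Col4a5, Col14a1, Col6a5, Col16a1 and Col18a1. Lower values were -1.61 (SE 1.29) for Col4a3, -1.50 (SE 1.27) for Col4a4, -0.60 (SE 2.97) for Col6a4, -0.36 (SE 1.02) for Col12a1, -0.34 (SE 1.50) for Col7a1 and -0.26 (SE 0.81) for Col27a1.

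Genes that make, modify, bind or break down collagen were read in 7 lists, and none of their tested members was called in any of the 3 comparisons. The 2 genes named from each list had its smallest p in curcumin against diabetes. Their differences between those groups are in part a product of that choice. Of the 15 tested partners that sit on fibrils, such as small leucine-rich proteoglycans, 3 were above 0 and 12 below in curcumin against diabetes (median -1.49), and 13 above and 2 below in diabetes against control (median 2.78). Their summed counts were 1.29% of diabetes 2, 0.304% of curcumin 1, 0.217% of curcumin 2, 0.0869% of control 1 and 0.0469% of diabetes 1, the library order of total collagen. Fmod, a fibril-binding proteoglycan, went another way at 51.5 CPM in control 1, 28.3 and 9.73 in diabetes 1 and 2, and 92.3 and 49.6 in curcumin 1 and 2, a log2 fold change of 1.91 (SE 0.64) with curcumin. Thbs2, a matricellular protein, was at 5.51, 2.63, 81.0, 3.88 and 7.14 CPM. The 13 genes of propeptide removal and crosslinking gave 3 above 0 and 10 below with curcumin (median -1.06), and 12 above and 1 below in diabetes (median 2.74). Their summed share was 0.0840% in diabetes 2 and 0.00592% to 0.0237% elsewhere. Loxl2, a crosslinking oxidase, was at 6.51, 3.89, 28.7, 4.57 and 3.02 CPM, and Tll2, a protease of the propeptide-cutting family, was at or below 1.89. For both lists, diabetes 2 is the library that stood highest, as it did for fibrillar collagen.

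In the other 5 lists, counts above and below 0 are given for curcumin against diabetes, then for diabetes against control. Of 22 genes of chain hydroxylation and folding, 8 were above 0 and 14 below with curcumin (median -0.50), and 17 above and 5 below in diabetes (median 0.77). Their summed share was 0.170% to 0.248% in all 5 libraries, a far narrower range than that of the collagens themselves. Fkbp10, a collagen chaperone, was at 16.9 CPM in control 1, 13.4 and 17.1 in diabetes 1 and 2, and 62.1 and 21.8 in curcumin 1 and 2, and Colgalt1, which adds galactose to collagen, at 67.4, 72.8, 174, 65.6 and 23.8. Both curcumin libraries lay above the diabetic ones for Fkbp10, as for 17.9% of all genes tested, and below them for Colgalt1, as for 9.72%. Of 11 collagen receptors tested, 7 were above 0 and 4 below with curcumin (median 0.21), and 6 above and 5 below in diabetes (median 0.99). In curcumin-treated diabetes against the control, 10 of the 11 were above 0, beside 57.3% of all genes tested. In that comparison 12 of 13 propeptide and crosslinking genes, 13 of 15 fibril partners and 11 of 13 breakdown genes were also above 0. So were 14 of 22 hydroxylation and folding, 10 of 16 other basement membrane and 12 of 16 profibrotic signalling genes. The summed share of the receptors was 0.168% in curcumin 1, 0.117% in diabetes 2 and 0.0661% to 0.0715% elsewhere. The collagen-binding integrin gene Itga2 was at 2.33, 1.34, 1.18, 54.7 and 1.89 CPM and Itga10 at 4.29, 0.668, 0.827, 4.39 and 3.51. Both integrin genes were higher in each curcumin library than in either diabetic one, as were 17.9% of all genes tested. Among 16 other basement membrane genes 6 were above 0 and 10 below (median -0.52), then 9 above and 7 below (median 0.74), and the summed share ran from 0.0499% in diabetes 1 to 0.331% in diabetes 2. The laminin gene Lamc3 was at 20.4, 6.56, 2.64, 24.9 and 9.59 CPM and Lama5 at 116, 43.2, 41.1, 181 and 44.2. In the list of 13 breakdown genes 4 were above 0 and 8 below (median -0.33), then 10 above and 3 below (median 2.04), and the summed share ran from 0.0189% in diabetes 1 to 0.117% in diabetes 2. The gelatinase Mmp9 was at 3.77, 1.53, 1.81, 90.9 and 1.32 CPM, its high value resting on curcumin 1, and the collagenase Mmp8 was at or below 0.591. Among 16 profibrotic signalling genes 7 were above 0 and 9 below (median -0.26), then 9 above and 7 below (median 0.18), with a summed share of 0.0417% to 0.0699%. Smad7, an inhibitor of TGF-beta signalling, was at 14.4, 9.86, 7.21, 30.5 and 19.0 CPM and Pdgfa, a growth factor of mesenchymal cells, at 32.5, 32.1, 21.9, 50.1 and 66.5. For these genes, the smallest adjusted p of edgeR's quasi-likelihood test in curcumin against diabetes was 0.852.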

How the data were processed

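Poly-A RNA was turned into libraries with a strand-marking kit and sequenced from both ends, per the labels' protocols. The values are raw counts of reads per gene, deposited by the authors in 1 table of 78334 Ensembl IDs. FastQC, featureCounts and GRCm39 are named in the submitters' processing notes; for the aligner, annotation release and strand setting, the entry is "not given in the sources used here". Because the strand setting is unknown, the exons that 13 collagens share with another gene could draw reads from it. Of all IDs, 51486 (65.7%) had a symbol, and these carried 95.3% to 98.5% of the counts per library. No GRCm39 coordinates were used. Transcript lengths, glycine-X-Y runs and exon overlaps came from the longest coding transcript per gene in GENCODE's annotation of GRCm38.

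CPM and shares were computed from library totals. Fits used edgeR 4.0.16 in R 4.3.3 on all 5 libraries (filterByExpr, TMM, robust quasi-likelihood test, two-sided, Benjamini-Hochberg over 29855 genes, threshold 0.05). They had 2 residual degrees of freedom, edgeR's default prior count, and a control assumed to vary like the other groups. SE was derived from the fold change and the F statistic. The method was also run on simulated data, and no conclusion about these libraries is drawn from that run. Members with a mean of at least 10 CPM and partner chains are described in full, and of each pathway list the 2 genes with the smallest p in curcumin against diabetes are named. The collagen genes, marker lists, pathway lists and naming rule were chosen with earlier results of these data known. Nothing in the labels says that replicate numbers pair libraries, so the main fits used no replicate block. Deviations of same-numbered libraries correlated at r = -0.41 across genes. With 2 libraries per group, this value cannot show whether they were paired. Alternatives were other scalings and filters, DESeq2 1.42.0, limma-voom (limma 3.58.1), blocking on the replicate number, fitting 4 libraries only, and omitting each library of the replicated groups.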

Additional observations from a re-analysis of the deposited data

How the results depend on the processing

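No collagen was called under any setting that kept every library of the compared groups. These were edgeR scaled by DESeq2 size factors, by upper quartile or by library total, and edgeR with no or a stricter low-count filter. The others were the 4 libraries alone, limma-voom, DESeq2 and a replicate block. DESeq2 called 93, 55 and 71 genes in curcumin against diabetes, diabetes against control and curcumin against control, where edgeR called 0. Log2 fold changes that changed sign were that of Col16a1 in diabetes against control, at -0.04 with library totals and -0.52 with limma-voom, and with limma-voom also Col6a3 in curcumin against diabetes (0.53) and Col6a5 in curcumin against control (-0.33). With the replicate block, the sign changed for Col6a3 in curcumin against diabetes (0.51), for Col16a1 (-1.06), Col1a1 (-0.88), Col1a2 (-0.07) and Col23a1 (0.17) in diabetes against control, and for Col16a1 (-0.28), Col18a1 (-0.01) and Col7a1 (1.06) in curcumin against control; the collagen medians were then 0.79, 0.17 and 0.87. A crossed pairing of the replicate numbers, chosen after seeing the data, called 0 genes in each of the 3 comparisons. The collagen share of control 1 was 0.168% of a total without the 20 most abundant genes. It was 0.140% without Col4a1, the collagen with the highest mean CPM over the 5 libraries. The cause of these changes was not tested. Only libraries of the diabetic and curcumin groups were left out, and control 1 was kept in both comparisons against it. Leaving out 1 library turned the sign of at least 1 fold change for 18, 17 and 16 of the 24 abundant collagens in the 3 comparisons, most often without diabetes 2 (31 of 72 values) and curcumin 1 (17). The collagen median ran from -0.06 (without curcumin 1) to 2.22 (without diabetes 2) in curcumin against diabetes, from -1.33 (without diabetes 2) to 1.16 (without diabetes 1) in diabetes against control, and from -0.34 (without curcumin 1) to 1.34 (without curcumin 2) in curcumin against control. The lowest and highest log2 fold changes with 1 library left out follow for the collagens whose sign turned. In curcumin against diabetes, Col12a1 -1.28 to 0.96, Col14a1 -1.49 to 0.84, Col15a1 -4.09 to 1.99, Col16a1 -0.69 to 2.27, Col18a1 -1.04 to 0.61, Col1a2 -0.80 to 2.69, Col3a1 -4.05 to 3.07, Col4a1 -4.42 to 3.83, Col4a2 -3.75 to 3.37, Col4a4 -0.81 to 2.32, Col5a1 -3.03 to 2.97, Col5a2 -3.44 to 3.40, Col5a3 -6.69 to 4.84, Col6a1 -3.19 to 2.56, Col6a2 -2.85 to 3.09, Col6a3 -3.17 to 4.30, Col6a4 -5.08 to 7.95, Col6a5 -4.57 to 2.22. In diabetes against control, Col12a1 -1.32 to 0.41, Col14a1 -0.33 to 2.00, Col15a1 -0.59 to 4.51, Col16a1 -1.96 to 1.00, Col18a1 -0.49 to 1.16, Col1a1 -1.34 to 2.07, Col1a2 -1.40 to 2.09, Col3a1 -2.16 to 4.37, Col4a1 -1.79 to 4.18, Col4a2 -1.78 to 3.93, Col5a1 -2.08 to 3.93, Col5a2 -1.83 to 5.02, Col5a3 -2.71 to 6.31, Col6a1 -1.05 to 3.60, Col6a2 -1.40 to 4.21, Col6a3 -2.01 to 3.87, Col6a5 -1.81 to 3.85. In curcumin against control, Col12a1 -1.49 to 0.26, Col15a1 -0.53 to 2.18, Col18a1 -0.37 to 0.47, Col23a1 -0.69 to 3.57, Col27a1 -0.79 to 0.11, Col3a1 -0.66 to 1.63, Col4a1 -1.21 to 2.96, Col4a2 -0.79 to 2.43, Col4a5 -0.65 to 1.56, Col4a6 -1.74 to 2.25, Col5a3 -1.38 to 3.06, Col6a1 -0.53 to 2.32, Col6a3 -0.28 to 3.16, Col6a4 -7.02 to 0.39, Col6a5 -1.68 to 1.23, Col7a1 -0.88 to 0.02. Where the sign held, the ranges were, in curcumin against diabetes, Col1a1 0.64 to 4.38, Col23a1 0.57 to 4.83, Col27a1 0.48 to 1.80, Col4a5 0.09 to 3.02, Col4a6 0.31 to 4.30, Col7a1 0.98 to 5.18; in diabetes against control, Col23a1 -1.27 to -1.26, Col27a1 -2.07 to -0.77, Col4a4 -3.82 to -0.91, Col4a5 -2.16 to -0.04, Col4a6 -2.63 to -1.64, Col6a4 -8.55 to -0.95, Col7a1 -5.53 to -1.33; in curcumin against control, Col14a1 0.09 to 0.82, Col16a1 0.25 to 0.36, Col1a1 1.84 to 3.67, Col1a2 1.00 to 1.52, Col4a4 -2.53 to -0.91, Col5a1 0.30 to 1.31, Col5a2 0.64 to 2.12, Col6a2 0.39 to 2.36. Genes at 0 allow up to 0.118 CPM in the shallower libraries, so levels of Col9a1, Col10a1 and Col2a1 near that limit show no order.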
